A study of Mus musculus with 2 samples.

Results

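The 10 T-box genes described here (Tbx1, Tbx2, Tbx3, Tbx4, Tbx5, Tbx6, Tbx15, Tbx18, Tbx20 and Tbx22) were picked by symbol out of the 21937 genes in the expression matrices by a rule that uses no measured value but that was set with earlier results of these data known. The matrices held 7 other genes of the family (T, Eomes, Tbr1, Tbx10, Tbx19, Tbx21 and Mga). T-box factors bind DNA through a shared domain and switch genes on or off while mesoderm and its derivatives take shape. Tbx5 and Tbx4 are known for starting the forelimb and the hindlimb, Tbx2 and Tbx3 for the margins of the limb and for the heart and face, Tbx15 and Tbx18 for the skeleton, dermis and body wall, and Tbx1 for the pharynx. Tbx20 acts in the heart, Tbx6 in presomitic mesoderm and Tbx22 in the palate.

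The cells came from mouse embryos at E11.5 in which an EGFP transgene under the broadly active CAG promoter, linked to a DNA barcode, had been integrated with the piggyBac transposon. The 2 founder suspensions, F0_8 and F0_9, were each made from an embryo that had received the transgene as a fertilised egg, so that the transgene can be mosaic in them. Of the 2 F1 suspensions, F1_1 came from a single F1 embryo, and for F1_mix cells of 2 F1 embryos were pooled on purpose. All embryos carried the transgene, and no strain is named in the labels. The 4 suspensions were tagged with their own multiplexing oligos and run as 1 droplet library, so they shared reagents and sequencing. Each embryo was sampled a single time, and the p-values below therefore measure the spread between suspensions.

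The cell table of the authors listed 5678 cells in 16 annotated types, and no barcode occurred in more than 1 suspension. The suspensions held between 16052917 and 19160116 gene UMIs, with a median of 10880 to 13267 UMIs per cell. Types were read as 12 deep types and 4 shallow ones (cells annotated Hepatocyte, Endodermal Progenitor, Foregut and Midgut), whose median depth ran from 721.5 to 1674 UMIs. Mesodermal Progenitor, Gut Mesenchyme/Amniotic Mesoderm, Chondrocyte and Myoblast/Cardiomyocyte are called the mesodermal types here, and they held 2110 cells, 37.2% of all cells and 50.1% of all gene UMIs. The names of these types were checked against marker genes. Myoblast/Cardiomyocyte carried skeletal muscle genes (1772 UMIs of Myog and 2209 of Tnnt1), while the heart muscle genes Nppa and Myl2 were at 0 UMIs there, Myh6 at 2, Myh7 at 11 and Myl7 at 17. Other genes of the heart list were detected there, with 338 UMIs of Tnnt2, 175 of Actn2 and 42 of Nkx2-5, against 1 to 12, 4 to 24 and 0 to 5 in the other mesodermal types. Tnnt2 and Actn2 are also used by skeletal muscle. The type held limb mesenchyme genes too, with 3783 UMIs of Prrx1 and 2411 of Msx1, and its limb field list was at 9.17 per 10000 non-mitochondrial UMIs, beside 11.2 in Mesodermal Progenitor. On that scale the cartilage list was at 5.35 in Chondrocyte, below the 6.87 of Gut Mesenchyme/Amniotic Mesoderm, and the gut mesenchyme list at 1.01 in Gut Mesenchyme/Amniotic Mesoderm, below the 1.33 of Chondrocyte. These lists thus did not set the named type above the other, and the names are used as the authors' labels.

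Levels are given as UMIs per 10000 gene UMIs, summed over the cells of a type, with exact Poisson 95% intervals. These intervals cover counting error only. The chemistry reads the 3′ end of transcripts, so a level is compared between cells for 1 gene and not between genes.

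Of the 10 genes, 8 were higher in the mesodermal types than in the other deep types in all 4 suspensions, and Tbx6 and Tbx20 were higher in 2 of 4. The mesodermal level stood above the level of the other deep types by a factor of 77.4 for Tbx4, 67.3 for Tbx15, 56.2 for Tbx18, 47.0 for Tbx5 and 23.8 for Tbx22. The factor was 11.6 for Tbx2, 7.42 for Tbx3, 4.01 for Tbx1, 1.80 for Tbx6 and 1.12 for Tbx20. Since the types were defined by clustering these same cells, the factors are a description and carry no test. For 6 genes (Tbx2, Tbx4, Tbx5, Tbx15, Tbx18 and Tbx22) the highest deep type was a mesodermal one in every suspension, but for 0 of the 10 was it the same single type in all 4 suspensions.

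**Figure D1:**
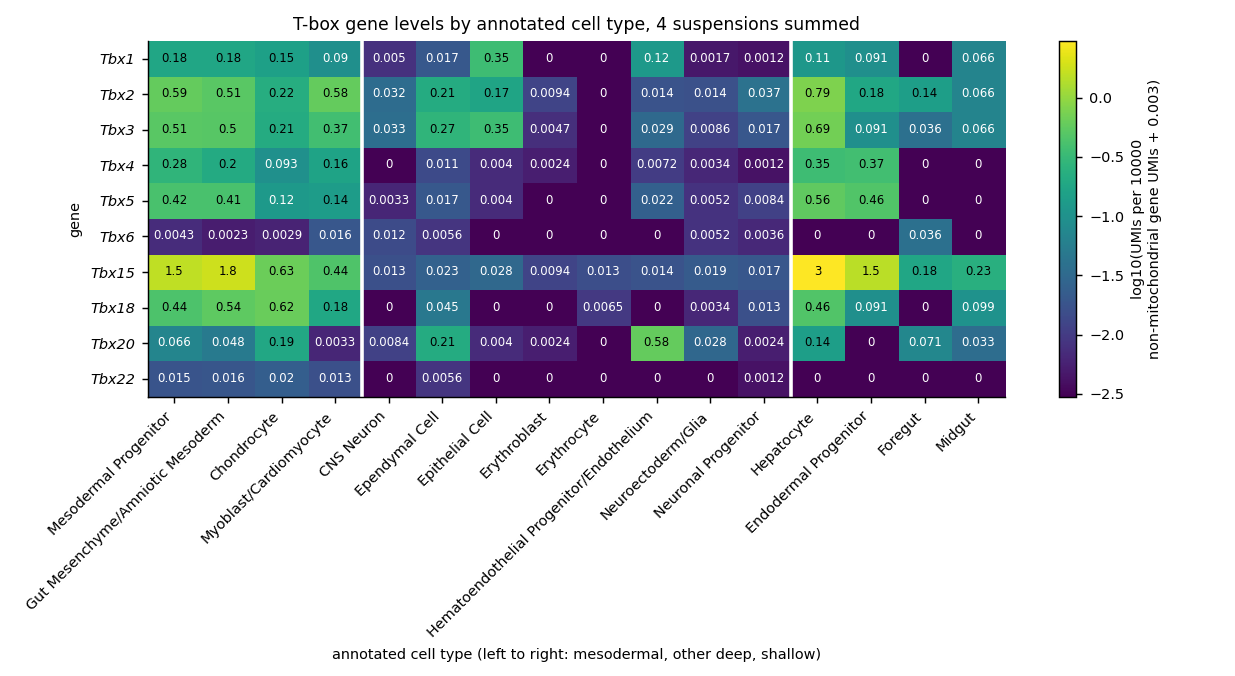
Heat map of the T-box genes (rows) in the 16 annotated types (columns, from left to right the 4 mesodermal, 8 other deep and 4 shallow types), with the 4 suspensions summed. Colour is log10 of UMIs per 10000 non-mitochondrial gene UMIs plus 0.003 and each cell prints the level itself, rounded from values such as 1.54 for Tbx15 in Mesodermal Progenitor and 0.585 for Tbx20 in Hematoendothelial Progenitor/Endothelium.

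Neuronal Progenitor, which should lack most of these genes, gave a measure of background. With every cell thinned to 5000 UMIs, Tbx15 was detected in 22.4% of mesodermal cells and in 0.509% of Neuronal Progenitor cells. For Tbx2 these shares were 15.8% and 1.53%, for Tbx3 13.2% and 0.509%, for Tbx18 13.3% and 0.340%, for Tbx5 9.63% and 0.170%, for Tbx4 6.34% and 0% and for Tbx1 4.77% and 0%. For Tbx6 the shares were 0.334% and 0.340%, so its mesodermal share was at background. Among 589 Neuronal Progenitor cells a count of 0 allows a share of up to 0.509%. Before thinning the median depth was 13388 UMIs in Neuronal Progenitor and 15468 in the mesodermal types. Droplets of the whole library with 100 to 300 UMIs, taken as a measure of free RNA, carried Tbx15 at 1.18, Tbx2 at 0.380 and Tbx3 at 0.371 UMIs per 10000. In droplets with fewer than 100 UMIs these levels were 0.466, 0.368 and 0.165.

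**Figure D2:**
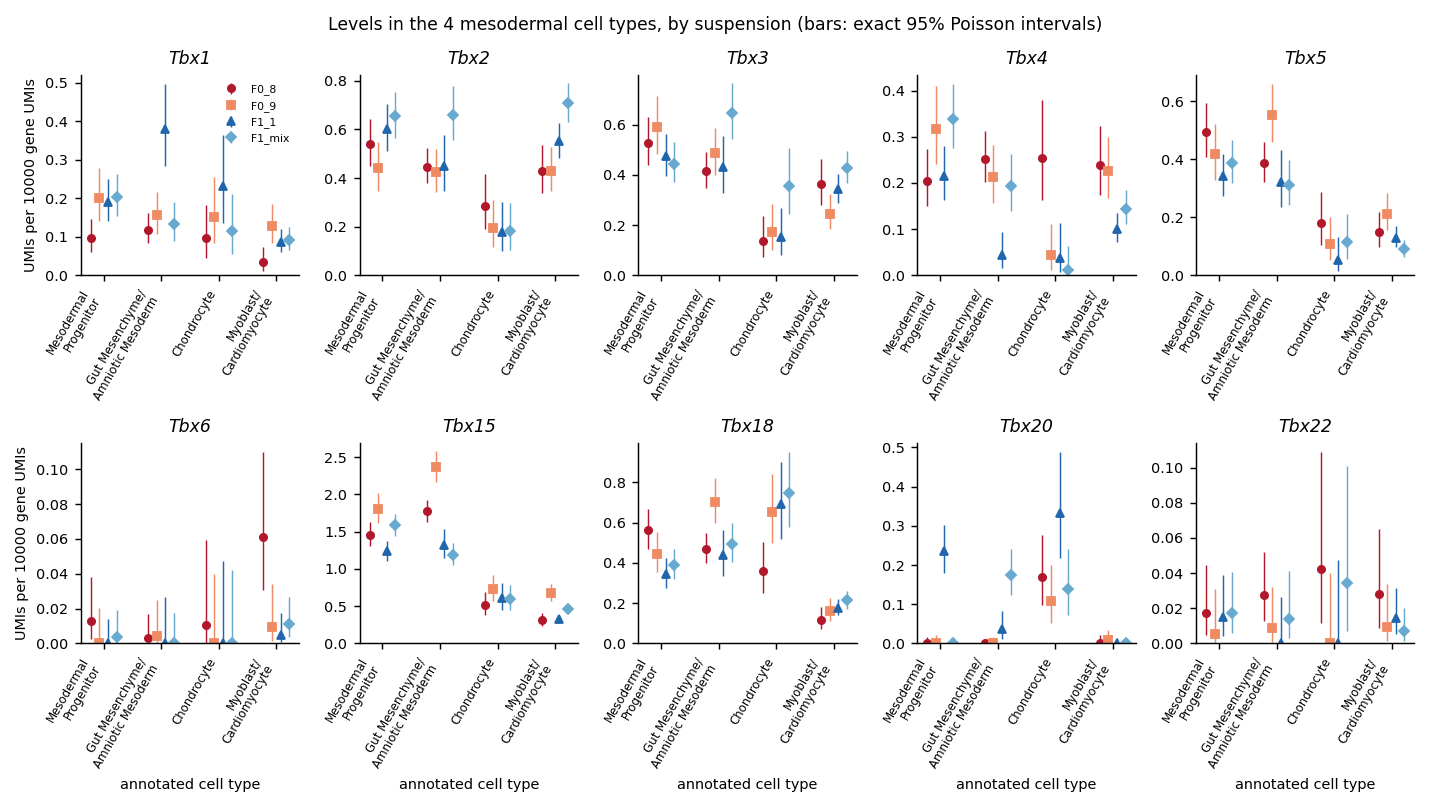
Level of each T-box gene (UMIs per 10000 gene UMIs) in the 4 mesodermal types, with 1 point per suspension and bars for exact Poisson 95% intervals. Tbx15 is low in Chondrocyte and Myoblast/Cardiomyocyte in every suspension (0.312 to 0.728) and lies between 1.19 and 2.37 in the other mesodermal types, while Tbx18 reaches 0.748 in Chondrocyte.

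Tbx5, the factor that starts the forelimb, lies on chromosome 5 (119796514 to 119885220, GRCm38.p6). It was at 0.406 in Mesodermal Progenitor (95% interval 0.367 to 0.448) and 0.401 in Gut Mesenchyme/Amniotic Mesoderm (0.361 to 0.444), values that did not differ beyond counting error. In Mesodermal Progenitor the 4 suspensions F0_8, F0_9, F1_1 and F1_mix gave 0.493, 0.418, 0.341 and 0.389, and in Gut Mesenchyme/Amniotic Mesoderm 0.386, 0.554, 0.322 and 0.312. Levels were lower in Myoblast/Cardiomyocyte at 0.132 and in Chondrocyte at 0.117, whose intervals overlapped.

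Tbx4, its hindlimb counterpart on chromosome 11 (85886367 to 85916097), was highest in Mesodermal Progenitor at 0.269 (0.237 to 0.304), above Gut Mesenchyme/Amniotic Mesoderm at 0.197 (0.169 to 0.228), Myoblast/Cardiomyocyte at 0.157 and Chondrocyte at 0.0911. Its suspensions gave 0.205, 0.317, 0.216 and 0.340 in Mesodermal Progenitor. In Gut Mesenchyme/Amniotic Mesoderm they gave 0.253, 0.213, 0.0430 and 0.194, with F1_1 far below the others. In F0_8 Mesodermal Progenitor was the lowest of the mesodermal types, below Chondrocyte at 0.255, Gut Mesenchyme/Amniotic Mesoderm at 0.253 and Myoblast/Cardiomyocyte at 0.240, and in the other suspensions Chondrocyte was at 0.0115 to 0.0435. The value of Tbx4 in CNS Neuron was 0 in all cells, which allows a level of up to 0.00491.

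Which genes went with a T-box gene inside 1 type was asked by comparing cells with at least 1 UMI of it against cells with none, after thinning to 5000 UMIs. Counts were summed per suspension and call, and edgeR's quasi-likelihood test with the suspension as a block was run over all genes, with Benjamini-Hochberg adjustment. Tbx2, Tbx3, Tbx15 and Tbx18 had 10 or more positive cells in every suspension in the mesodermal type with the most positive cells. For Tbx3 and Tbx18 the type with the highest share of positive cells was another one, with overlapping intervals, namely Mesodermal Progenitor for Tbx3 (14.9% against 14.8% in Gut Mesenchyme/Amniotic Mesoderm) and Chondrocyte for Tbx18 (17.3% against 15.3%), and these were not fitted. Tbx4 and Tbx5 were fitted in Mesodermal Progenitor after their cells had been counted, with 9 to 13 and 13 to 17 positive cells per suspension. Tbx5 had more positive cells in Gut Mesenchyme/Amniotic Mesoderm (85 against 60) and Tbx4 as many (46), but with 8 and 2 in F1_1, and these were not fitted. Tbx1, Tbx6, Tbx20 and Tbx22 had too few. A cell without a UMI at this depth can still express the gene.

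In Mesodermal Progenitor, 41 of 6078 genes (0.675%) differed between the 46 cells with Tbx4 and those without it, 13 higher and 28 lower. Pitx1, the hindlimb factor that acts upstream of Tbx4, was the foremost of these. In F0_8, F0_9, F1_1 and F1_mix it stood at 5.17, 4.31, 2.45 and 2.33 UMIs per 10000 with Tbx4 and at 0.576, 0.578, 0.218 and 0.403 without it. The groups did not overlap, and the difference was 2.94 ± 0.27 on the log2 scale (SE, 4 pairs, adjusted p = 3.7e-15 from edgeR). Shox2, a homeobox gene of the proximal limb skeleton, was higher by 1.73 ± 0.23 (adjusted p = 4.1e-08 from edgeR). Hoxa10, a patterning gene of the limb, was higher by 1.46 ± 0.23 (adjusted p = 6.7e-06 from edgeR). Mecom (0.82 ± 0.13) and Rasgef1b (2.08 ± 0.46) also rose. Thinned to 3000 UMIs, the calls of Hoxa10 and Mecom were lost (adjusted p up to 0.0894 and 0.134). Ebf2, a factor of body wall and dermal mesenchyme, fell by 2.04 ± 0.33 on the log2 scale (adjusted p = 6.7e-06).

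Of 13 limb field genes, 12 were tested beside Tbx4, 1 rose (Pitx1) and 0 fell, against 0.675% of all genes. The median of the 12 was 1.46 on the log2 scale, beside -0.02 over all genes tested. Of 10 face and pharynx genes, 5 were tested and 2 fell, namely Barx1, a homeobox gene of facial and stomach mesenchyme, with 2 UMIs in cells with Tbx4 against 151 without, and Eya1, a transcriptional cofactor, with 2 against 185. The sclerotome gene Pax1 stood at 1 UMI with Tbx4 and 136 without, a ratio of 13.9 with a 95% counting interval of 2.46 to 554. Zic1, a zinc finger factor of dorsal somites and neural tube, was at 0 UMIs in cells with Tbx4 and 102 in cells without, at least 3.48-fold lower against a floor of 3 UMIs over the group. Cdh18 and Crym were likewise at 0 UMIs and at least 3.62-fold and 3.76-fold lower. Several of these calls were lost when 1 suspension was left out. Those of Cdh18, Pax1 and Barx1 were lost without F0_8, without F0_9 or without F1_1, that of Eya1 without F0_8 or F1_1, that of Zic1 without F0_8 or F0_9, that of Crym without F0_9 and that of Rasgef1b without F0_8 or F1_mix, and their adjusted p rose to as much as 0.237, 0.272, 0.432, 0.880, 0.187, 0.116 and 0.111 in turn over all alternatives. The T-box gene Tbx15 was higher beside Tbx4 by 0.93 ± 0.24 (adjusted p = 0.0224), a call lost in 8 of 10 alternatives and without any 1 of the 4 suspensions. Of the remaining lists, Hand2 rose by 1.65 ± 0.41 in 3 of 4 suspensions (adjusted p = 0.0181), a call lost without F0_9, F1_1 or F1_mix (up to 0.365), and Col2a1 fell by 1.07 ± 0.27 (adjusted p = 0.0231), a call lost without any 1 of the 4 suspensions (up to 0.964).

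In Mesodermal Progenitor, 37 of 6038 genes (0.613%) differed between cells with and without Tbx5, 20 higher and 17 lower. Lhx9, a LIM homeodomain factor of early limb mesenchyme, stood at 1.18, 1.86, 1.54 and 1.13 UMIs per 10000 with Tbx5 and at 0.195, 0.707, 0.157 and 0.240 without it, a difference of 2.19 ± 0.35 (adjusted p = 0.0029). Every suspension was higher with Tbx5. Meox2, a homeobox gene of somites and limb muscle, was higher by 1.72 ± 0.27 (adjusted p = 0.0029), Lmx1b, which sets dorsal limb identity, by 1.79 ± 0.39, Hoxd11, which patterns the forearm, by 1.72 ± 0.35, and agouti (a), a pigment signalling gene, by 1.77 ± 0.35. The T-box gene Tbx18 was higher by 1.78 ± 0.30 (adjusted p = 0.0033). The calls of Lhx9 and Meox2 were lost with cells thinned to 3000 UMIs (adjusted p up to 0.489 and 0.321). The call of Lmx1b was lost without any 1 of the 4 suspensions (adjusted p up to 0.725), those of Hoxd11 without F0_9 or F1_mix (up to 0.471), of a without F1_mix (up to 0.596) and of Tbx18 without F0_8 or F1_mix (up to 0.947).

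Foxd1, a forkhead factor of limb and kidney mesenchyme, was at 0 UMIs in the cells with Tbx5 and at 328 UMIs in those without, at least 15.1-fold lower. It was lower in 4 of 4 suspensions, and under all 10 alternatives the call remained with an adjusted p of at most 0.00504. Pitx1 was also lower beside Tbx5, with 4 UMIs against 177 (0.471, 0, 0 and 0 UMIs per 10000 with Tbx5 against 1.08, 1.27, 0.417 and 0.640 without), a difference of -2.68 ± 0.59 and an adjusted p of 0.0312 by edgeR. That call was lost in 5 of 9 alternatives, without F0_9 and without F1_mix among them. Of the 13 limb field genes, 11 were tested beside Tbx5, 3 rose and 1 fell, with a median of 0.37 on the log2 scale beside -0.002 over all genes tested. Pax3, the factor of muscle precursors, at 0 UMIs against 142 (at least 6.53-fold lower), Zic1 at 0 against 102 (at least 4.69-fold) and Pax1 at 1 against 136 (ratio 18.8, 3.31 to 746) were lower as well. Each of these calls was lost without F0_8, and those of Zic1 and Pax1 also without F0_9 or F1_mix (adjusted p up to 0.928, 0.246 and 0.125). Barx1 was lower too, with an adjusted p of 0.0248 by edgeR, a call lost without F0_8, F0_9 or F1_mix (up to 0.309). Whether the 2 limb factors differed in their partner genes was not tested.

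Tbx2 (chromosome 11, 85832615 to 85841948) and Tbx3 (chromosome 5, 119670534 to 119684724) act as repressors and sit next to Tbx4 and Tbx5 in the genome, at gaps of 44.4 and 112 kb. Tbx2 was at 0.573 in Mesodermal Progenitor (0.526 to 0.623), 0.568 in Myoblast/Cardiomyocyte (0.527 to 0.612) and 0.493 in Gut Mesenchyme/Amniotic Mesoderm (0.448 to 0.540), and all of these intervals overlapped. It was lower in Chondrocyte at 0.214. Tbx3 was at 0.4999 in Mesodermal Progenitor and 0.489 in Gut Mesenchyme/Amniotic Mesoderm, again with overlapping intervals, then at 0.359 in Myoblast/Cardiomyocyte and 0.205 in Chondrocyte. Outside mesoderm, Tbx3 reached 0.341 in Epithelial Cell (0.274 to 0.420) and 0.263 in Ependymal Cell, and Tbx2 0.203 in Ependymal Cell and 0.163 in Epithelial Cell. In Ependymal Cell the suspensions gave 0.163, 0.307, 0.568 and 0.0615 for Tbx3, with F1_1 highest and F1_mix lowest.

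In Myoblast/Cardiomyocyte, 96 of 6544 genes (1.47%) differed between the 113 cells with Tbx2 and those without, 36 higher and 60 lower. Crabp1, which binds retinoic acid in the cell, stood at 4.0011, 4.0014, 8.27 and 13.1 UMIs per 10000 with Tbx2 and at 1.52, 3.58, 4.47 and 4.09 without, a difference of 1.13 ± 0.14 (adjusted p = 1.0e-06). The difference was smallest in F0_9. Mpped2 (1.26 ± 0.15, adjusted p = 3.1e-07) was higher in 4 of 4 suspensions, as was Ednra, the endothelin receptor of facial mesenchyme (1.20 ± 0.24, adjusted p = 0.0025), whose call was lost without F1_mix (adjusted p up to 0.475). Msx1, a homeobox gene of limb and face mesenchyme, was higher by 1.31 ± 0.17 (adjusted p = 1.8e-06) and in 3 of 4 suspensions. Prrx1, a homeobox gene of limb mesenchyme, was higher by 0.76 ± 0.13 (adjusted p = 0.00038) and in 4 of 4, a call lost with another random draw of the thinning (adjusted p up to 0.0524). These were the 2 that rose of 10 limb field genes tested, 0 fell, and the median of the 10 was 0.03 beside -0.01 over all genes tested. Of 10 face and pharynx genes, 8 were tested beside Tbx2 and 3 rose, Alx1 (1.08 ± 0.26), Barx1 (1.08 ± 0.26) and the LIM homeobox gene Lhx8 (2.40 ± 0.49). Barx1 was higher in 4 of 4 suspensions, while Alx1 was lower with Tbx2 in F0_9 (0.375 against 0.586) and Lhx8 in F0_8 (0 against 0.138). The 3 calls were lost with DESeq2, without F1_1 and without F1_mix, and those of Alx1 and Barx1 also without F0_8 (adjusted p up to 0.99992 for Alx1 and Barx1 and 0.261 for Lhx8).

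Of 8 skeletal muscle genes, 5 were tested beside Tbx2 and 4 fell (Tnnt1, Myog, Myod1 and Myh3), against 1.47% of all genes. The call of Myod1 was lost with 3000 UMIs and with another random draw, and that of Myh3 with DESeq2, without F1_1 and without F1_mix (adjusted p up to 0.680 and 0.468). Tnnt1, a slow troponin, had 2 UMIs in cells with Tbx2 and 479 in cells without (ratio 51.3, 95% counting interval 14.1 to 425). Outside the list, Ttn, the sarcomere spring titin, and Myl1, a myosin light chain, were at 0 UMIs and at least 15.5-fold and 11.9-fold lower. Myog, which drives muscle differentiation, was at 0 against 397 UMIs, at least 28.4-fold lower, but with another random draw of the thinning its difference was only -0.66 with an adjusted p of 0.859. Erythroid and neural genes moved too. Hbb-y, an embryonic globin, fell by 3.14 on the log2 scale with 14.4 UMIs per 10000 in the F0_9 cells without Tbx2 and 0.363 to 0.529 in the other suspensions, and the call was lost without F0_9. The neural progenitor gene Nes fell by 1.28 ± 0.32 (adjusted p = 0.0215), a call lost without F0_8, F1_1 or F1_mix. Of 4 erythroid genes 3 were tested and 2 fell, and of 4 neural progenitor genes 2 were tested and 2 fell. The other erythroid gene, Hba-x, was at 0.333, 0.5002, 0.162 and 0.208 with Tbx2 against 0.115, 6.32, 0.164 and 0.165 without, so it was lower in F0_9 and F1_1, the latter by little, and the other neural gene, Fabp7, was lower in 3 of 4 suspensions, a call lost without F0_8, F1_1 or F1_mix (adjusted p up to 0.99992). Col2a1 fell by 1.14 ± 0.27 on the log2 scale (adjusted p = 0.0134), a call lost without any 1 of the 4 suspensions (up to 0.342). Their part in the other differences was not tested.

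Tbx3 in Gut Mesenchyme/Amniotic Mesoderm went with 33 of 6568 genes (0.502%), 17 higher and 16 lower. Nrg1, a ligand of ErbB receptors, stood at 4.37, 4.80, 3.46 and 6.33 UMIs per 10000 in cells with Tbx3 and at 1.06, 1.24, 0.659 and 1.21 in cells without. Those values were separated in every suspension, with a difference of 2.15 ± 0.15 (adjusted p = 2.5e-08), and the call remained under all 10 alternatives (2.06 to 2.24). Lingo2 (1.64 ± 0.28), Ephb1, a guidance receptor (1.76 ± 0.31), Igfbp3, which binds insulin-like growth factors (1.75 ± 0.32), and Zfp804a (2.05 ± 0.44) were higher too, but with another random draw the difference of Igfbp3 was -0.10. The call of Lingo2 was lost in that draw (adjusted p up to 0.960). The calls of Ephb1 and Igfbp3 were lost without F0_9 and that of Zfp804a without F1_mix (adjusted p up to 0.496, 0.995 and 0.365). Foxd1 fell by 2.45 ± 0.37 on the log2 scale (adjusted p = 0.0022), from 0.708, 1.32, 2 and 1.39 UMIs per 10000 without Tbx3 to 0.243, 0.240, 0 and 0.267 with it, and this call too was kept under all 10 alternatives. Zic1 had 1 UMI with Tbx3 against 129 without (ratio 22.4, 3.96 to 893) and Sparcl1, a matrix glycoprotein, 2 against 144 (12.5, 3.40 to 104), and both calls were lost with another random draw of the thinning, that of Sparcl1 also without F1_mix (adjusted p up to 0.0803 for Zic1 and 0.691 for Sparcl1). Of 13 limb field genes, 9 were tested beside Tbx3 by edgeR. Their differences ran from -2.40 for Lmx1b to 1.37 for Msx1, with adjusted p of 0.141 or more. At an unadjusted p under 0.05 there were 4, beside 455 of all 6568 genes tested. The median of the 9 limb field genes was -0.04, beside -0.0034 over all genes tested. Sox9, the master factor of cartilage, fell by 1.17 ± 0.21 (adjusted p = 0.0055), 1 of 2 cartilage genes tested, and its call was lost without F0_9 (adjusted p up to 0.151). Osr1 of the dermis and body wall list rose by 1.06 ± 0.24 (adjusted p = 0.0489), a call lost without F0_8, F0_9 or F1_mix (up to 0.398).

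Tbx2 and Tbx3 rose with each other in both fits. In Gut Mesenchyme/Amniotic Mesoderm, Tbx2 was at 1.27, 1.04, 1.46 and 1.27 UMIs per 10000 with Tbx3 and at 0.363, 0.375, 0.165 and 0.456 without (1.77 ± 0.28, adjusted p = 0.0027), a call lost only when cells were thinned to 3000 UMIs. In Myoblast/Cardiomyocyte, Tbx3 was at 1.0003, 0.625, 0.811 and 0.959 with Tbx2 and at 0.253, 0.182, 0.304 and 0.282 without (1.65 ± 0.30, adjusted p = 0.00068), a call lost only without F1_mix. Tbx15 was lower beside Tbx3 by -1.31 ± 0.22 on the log2 scale (adjusted p = 0.0051), with 0.546, 1.44, 0.546 and 0.600 against 1.95, 2.64, 1.55 and 1.49, and that call was lost in 4 of 10 alternatives, the other random draw among them.

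Tbx15, a factor of skeletal size and dorsal skin pattern on chromosome 3 (99240348 to 99354260), was highest in Gut Mesenchyme/Amniotic Mesoderm at 1.72 (1.63 to 1.80), above Mesodermal Progenitor at 1.503 (1.43 to 1.58), Chondrocyte at 0.615 and Myoblast/Cardiomyocyte at 0.433. In Gut Mesenchyme/Amniotic Mesoderm the suspensions gave 1.77, 2.37, 1.33 and 1.19, and in Mesodermal Progenitor 1.46, 1.81, 1.24 and 1.59, so the order of these 2 types was turned in F1_mix. Tbx18, which shapes the somite and the epicardium and lies on chromosome 9 (87702800 to 87731260), was the only one of the well detected genes with Chondrocyte at the top, at 0.606 (0.528 to 0.694) beside 0.529 (0.483 to 0.579) in Gut Mesenchyme/Amniotic Mesoderm. Those intervals overlapped. Chondrocyte led in F1_1 and F1_mix at 0.691 and 0.748, but in F0_8 it was at 0.361, under the 0.563 of Mesodermal Progenitor.

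The fit of Tbx15 had the most positive cells, 199 in Gut Mesenchyme/Amniotic Mesoderm, and 198 of 7638 genes (2.59%) differed, 93 higher and 105 lower. Osr2, a factor of joints and palate, stood at 0.652, 0.647, 0.870 and 0.640 UMIs per 10000 with Tbx15 and at 0.139, 0, 0.110 and 0.0504 without, a difference of 3.04 ± 0.41 (adjusted p = 4.8e-06). Chrdl1, a secreted BMP antagonist, was higher by 2.76 ± 0.46 (adjusted p = 0.00014), and Gdf5, the growth factor of forming joints, by 3.06 ± 0.65 (adjusted p = 0.0031) with 32 UMIs against 8. Sall1 (2.98 ± 0.61), Fam181b (2.28 ± 0.33) and Lmx1b (2.23 ± 0.39) rose as well. The calls of Gdf5, Sall1, Fam181b and Lmx1b were lost with 3000 UMIs, that of Sall1 also with DESeq2 (adjusted p up to 0.176, 0.147, 0.340 and 0.503). Both cartilage genes that could be tested rose, Sox9 by 1.10 ± 0.14 (adjusted p = 2.5e-06) and Col2a1, the main cartilage collagen, by 0.67 ± 0.15 (adjusted p = 0.0057), the latter call being lost without F1_1 or F1_mix (adjusted p up to 0.129).

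Limb field genes moved in both directions beside Tbx15. Of 13, 12 were tested, 5 rose (Hoxd11, Lmx1b, Hoxa13, Hoxd12 and Hoxd13) and 1 fell (Msx1), against 2.59% of all genes, and their median was 1.03 on the log2 scale beside -0.001 over all genes tested. Hoxd11 was at 1.19, 1.51, 0.696 and 0.480 UMIs per 10000 with Tbx15 and at 0.462, 0.462, 0 and 0.269 without (1.57 ± 0.27, adjusted p = 0.00027). Msx1 was at 0.233, 0.277, 0.348 and 0.320 with Tbx15 against 1.14, 1.54, 1.10 and 1.29 without (-2.23 ± 0.25, adjusted p = 1.7e-07). No suspension overlapped for Msx1, and its call held under all 10 alternatives. Hoxd13 was higher in the founders alone, with 0.884, 0.400, 0 and 0 with Tbx15 against 0.127, 0.269, 0.0274 and 0.101 without (1.53 ± 0.43, adjusted p = 0.0471). Its call and that of Hoxd12 were lost with another random draw and with DESeq2, and that of Hoxa13 with DESeq2 (adjusted p up to 0.99993, 0.499 and 0.334).

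Of 10 face and pharynx genes, 7 were tested and 3 fell, namely Alx1, a homeobox factor of the face (-2.43 ± 0.31, adjusted p = 2.5e-06), Barx1 (-2.13 ± 0.36, adjusted p = 0.00021) and Eya1 (-2.12 ± 0.35, adjusted p = 0.00016), while Osr2 rose. Eya1 was lower in 3 of 4 suspensions and stood at 0.522 with Tbx15 against 0.466 without in F1_1. The calls of Barx1 and Eya1 were lost with DESeq2 (adjusted p up to 0.1498 and 0.0561). Of 5 gut mesenchyme genes, 3 were tested and 2 fell. Foxf1, a forkhead factor of the gut wall, stood at 0.0233, 0.0616, 0.174 and 0 with Tbx15 and 0.497, 0.231, 0.849 and 1.03 without (-3.30 ± 0.48, adjusted p = 1.7e-05), a call lost with 3000 UMIs (adjusted p up to 0.206), and Gata6 had 1 UMI against 67 (ratio 28.4, 4.93 to 1139). Of 6 genes of the epicardium and coelomic lining, 3 were tested and 2 fell, Wt1 at 0 UMIs against 74 (at least 10.5-fold lower) and Tcf21 at 0 against 55 (at least 7.77-fold lower). Gata3 at 0 against 61 was at least 8.62-fold lower. The calls of Wt1, Gata6 and Gata3 were lost with another random draw of the thinning, and that of Tcf21 was not. Lower genes of other lists were Pax3 (-2.33 ± 0.42, adjusted p = 0.00041), the neuronal gene Stmn2 (-1.54 ± 0.35, adjusted p = 0.0066) and Ebf2 (-0.48 ± 0.13, adjusted p = 0.0358). The call of Pax3 was lost without F0_8 (adjusted p up to 0.109), that of Stmn2 without F0_9 (up to 0.99993) and that of Ebf2 without F0_9, F1_1 or F1_mix (up to 0.861). Meox2 of the somite list rose by 0.83 ± 0.20 (adjusted p = 0.0107), a call lost without F0_9 or F1_mix (up to 0.587), and Hand2 of the heart list by 1.01 ± 0.29 (adjusted p = 0.0497), a call lost without any 1 of the 4 suspensions (up to 0.737).

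Tbx18 in Gut Mesenchyme/Amniotic Mesoderm went with 50 of 6490 genes (0.77%), 34 higher and 16 lower. Shox2 stood at 3.83, 3.94, 2.40 and 4.80 UMIs per 10000 with Tbx18 and at 0.816, 0.928, 0.617 and 0.726 without, a difference of 2.26 ± 0.17 (adjusted p = 1.9e-10) that stayed between 2.07 and 2.33 under all 10 alternatives. Cadm2, an adhesion molecule (1.55 ± 0.22), Epha5, an ephrin receptor (1.62 ± 0.35), Cadps2 (2.37 ± 0.52) and Lhx9 (1.88 ± 0.41) rose too. Pax3 had 1 UMI in cells with Tbx18 and 128 without (ratio 23.1, 4.07 to 918), Barx1 2 against 253 (22.8, 6.24 to 189) and Zic1 3 against 127 (7.63, 2.55 to 37.5). Of 10 face and pharynx genes, 6 were tested and 3 fell, Barx1, Alx1 and Eya1. Of 13 limb field genes, 9 were tested, Lhx9 rose and Msx1 fell (-1.72 ± 0.31, adjusted p = 0.0020), the latter call being lost with 3000 UMIs, another random draw and DESeq2 (adjusted p up to 0.805), and the median of the 9 was 0.33 beside 0.00096 over all genes tested. Thinned to 3000 UMIs, the calls of Cadm2, Barx1 and Cadps2 were lost (adjusted p up to 0.0718, 0.0718 and 0.772). Without F0_9 the calls of Epha5, Alx1 and Eya1 were lost, without F0_8 those of Epha5 and Lhx9, and without F1_mix those of Lhx9, Zic1 and Eya1 (adjusted p up to 0.538 for Epha5, 0.709 for Alx1, 0.711 for Eya1, 0.828 for Lhx9 and 0.966 for Zic1).

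Tbx5, Tbx15 and Tbx18 went together in Gut Mesenchyme/Amniotic Mesoderm. Beside Tbx18, Tbx5 was at 1.45, 2.0008, 0.667 and 1.80 against 0.296, 0.420, 0.272 and 0.0968 (2.45 ± 0.30, adjusted p = 4.1e-06), and Tbx15 was at 3.0011, 4.52, 2.67 and 4.30 against 1.57, 2, 1.21 and 0.823 (1.34 ± 0.18, adjusted p = 2.8e-05). Beside Tbx15, Tbx5 was higher by 2.21 ± 0.27 (adjusted p = 8.7e-07) and Tbx18 by 1.59 ± 0.25 (adjusted p = 6.4e-05). All of these were higher in 4 of 4 suspensions, and all remained called under the 10 alternatives. Of the 10 T-box genes themselves, 6 were tested beside Tbx18 and 2 rose, against 0.77% of all genes called, and 6 beside Tbx15 and 3 rose, against 2.59%, the third being Tbx4 (1.74 ± 0.46, adjusted p = 0.0267, higher in 3 of 4 suspensions), a call lost in 5 of 9 alternatives, without F0_8 and without F1_mix among them (adjusted p up to 0.737).

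**Figure D3:**
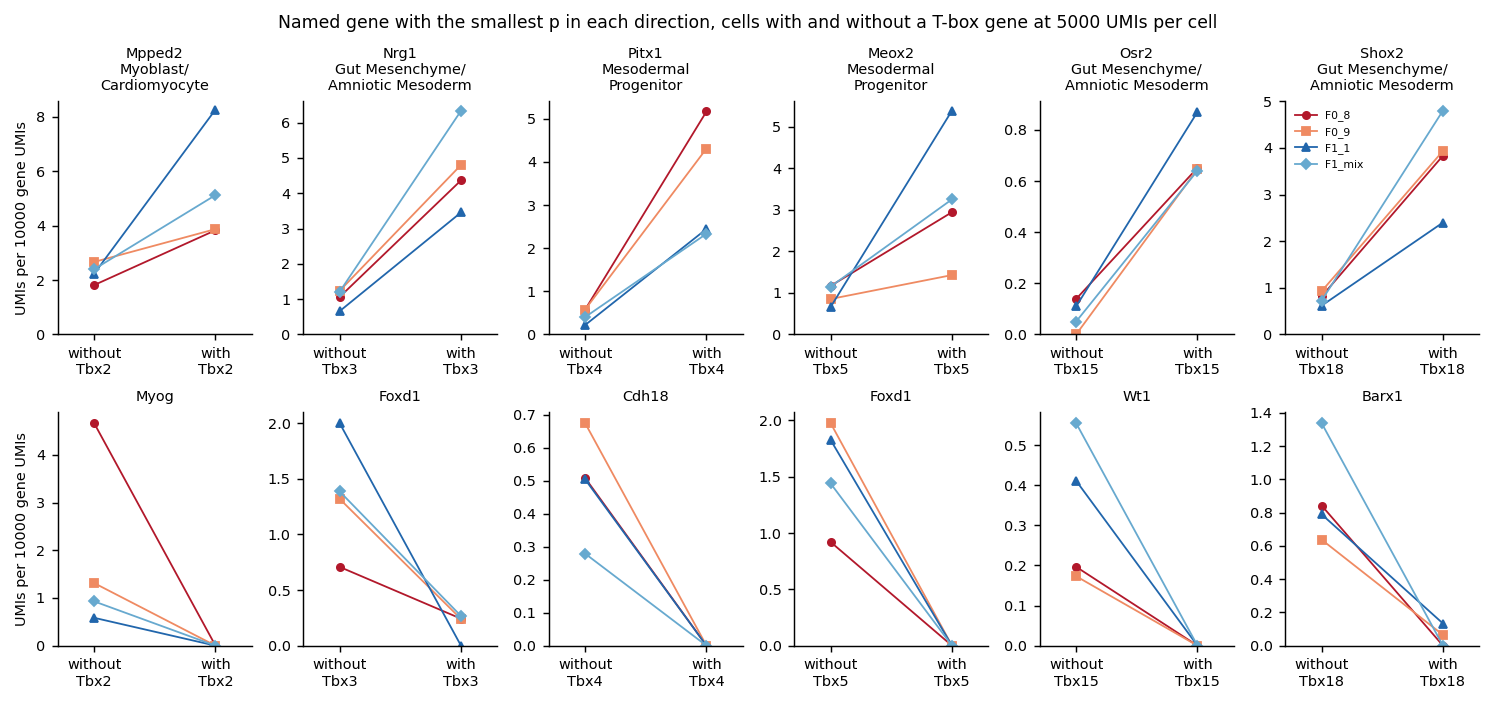
Level (UMIs per 10000 gene UMIs at 5000 UMIs per cell, linear axes from 0) of the named gene with the smallest p that was higher (upper row) and lower (lower row) beside Tbx2, Tbx3, Tbx4, Tbx5, Tbx15 and Tbx18, with 1 line per suspension from the cells without to the cells with the T-box gene. Pitx1 rises from 0.218 to 0.578 up to 2.33 to 5.17 beside Tbx4, and Foxd1 falls to 0 beside Tbx5 in all 4 suspensions.

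Which T-box genes were detected in the same cell was described over 2097 mesodermal cells at 5000 UMIs, as the number of cells with both genes divided by the product of their shares within each type and suspension. Of 45 pairs, 21 had 5 or more such cells expected, and 7 of these had a 95% counting interval above 1 and 4 an interval below 1. Tbx5 and Tbx18 stood at 2.84 (2.26 to 3.53) with 82 cells against 28.8 expected, and the suspensions gave 2.66, 2.85, 2.11 and 3.73. Tbx2 and Tbx3 stood at 2.34 (1.91 to 2.82) with 106 cells, and 38.3% of the cells with Tbx3 also had Tbx2. Tbx5 and Tbx15 (1.94), Tbx15 and Tbx18 (1.81), Tbx4 and Tbx15 (1.78), Tbx4 and Tbx18 (1.61) and Tbx3 and Tbx5 (1.52) were the others above 1, each in 4 of 4 suspensions.

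The ratio was below 1 for Tbx2 and Tbx15 at 0.612 (0.447 to 0.819), with 0.523, 0.805, 0.585 and 0.553 in the suspensions, and for Tbx3 and Tbx15 at 0.526 (0.362 to 0.739). Tbx1 met Tbx3 in 1 cell against 12.9 expected and Tbx5 in 1 against 9.93. The limb pair Tbx4 and Tbx5 stood at 1.17 with an interval of 0.684 to 1.88 that held 1, and its suspensions gave 1.41, 0.211, 1.22 and 2.23. Of the genomic neighbours, Tbx3 and Tbx5 were above 1 and Tbx2 and Tbx4 at 0.906 (0.553 to 1.40) were not separated from 1. These ratios depend on where the annotation sets the borders of a type, and they carry no test.

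**Figure D4:**
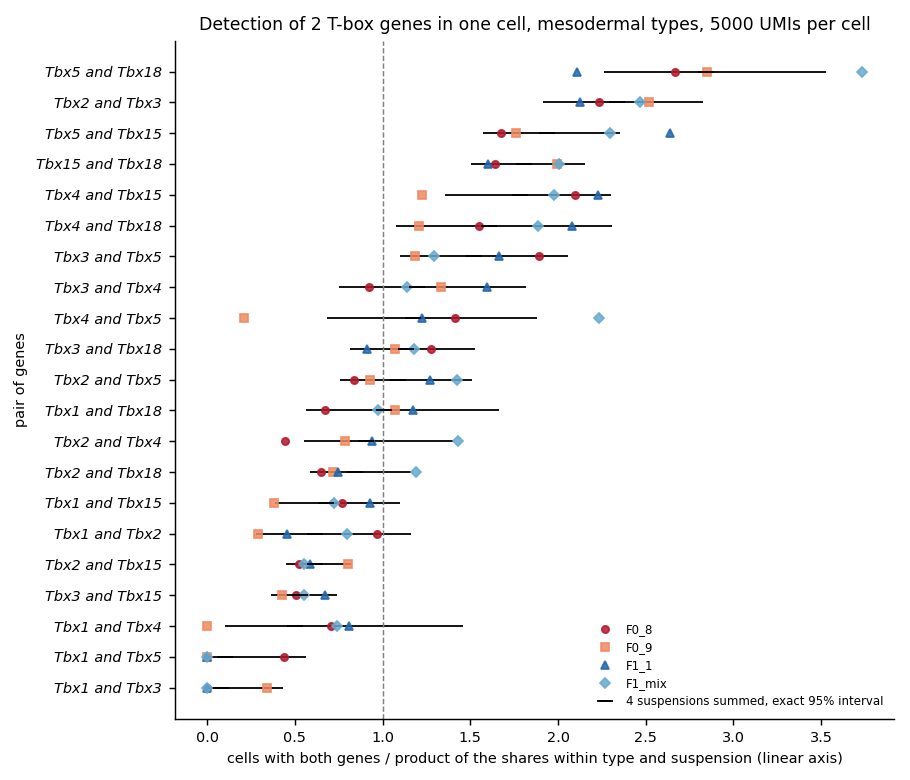
Ratio of the cells with both T-box genes to the product of their shares within type and suspension (linear axis, dashed line at 1) for the 21 pairs with 5 or more cells expected. Points are suspensions and bars the exact 95% counting interval of their sum, and the rows run from Tbx5 and Tbx18 at 2.84 down to Tbx1 and Tbx3 at 0.0774.

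Over 41 sums (deep types by suspensions with 20 or more cells), the level of Tbx15 on a log2 scale was most like that of Tbx5 (Pearson r = 0.961), followed by Twist2, a dermal bHLH factor (0.958), Ddr2 (0.9496) and Cped1 (0.948). For Tbx18 the gene most alike was Twist2 (0.951), followed by Col1a1, Ddr2 and Pdgfrb. Tbx2 and Tbx3 were most like Nfatc4 (0.929 and 0.912), with Ednra among the 4 closest to Tbx2 and Tbx2 itself among those closest to Tbx3 (0.908). Tbx4 was most like Tbx15 (0.897) and Tbx1 like Rarg, a retinoic acid receptor (0.889). The closest genes of Tbx6 (Myl1, 0.711), Tbx22 (Alx1, 0.746) and Tbx20 (Pdlim3, 0.615) were less alike. The sums share 1 library and their depth, and r is a description.

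Tbx1, the pharyngeal factor on chromosome 16 (18580979 to 18590671), was the only well detected gene with its top in Epithelial Cell, at 0.337 (0.270 to 0.416), above the 0.173 (0.148 to 0.202) of Mesodermal Progenitor and the 0.171 (0.145 to 0.200) of Gut Mesenchyme/Amniotic Mesoderm. The suspensions gave 0.382, 0.314, 0.377 and 0.264 in Epithelial Cell, where the epithelial genes Epcam, Cdh1, Krt8 and Krt18 stood at a summed 15.9 per 10000. The mesodermal types still held 79.2% of the 607 UMIs. In F1_1 Gut Mesenchyme/Amniotic Mesoderm was at 0.380, beside the 0.377 of Epithelial Cell, while the other suspensions gave 0.119, 0.155 and 0.132 there. Hematoendothelial Progenitor/Endothelium was at 0.120 and overlapped with Chondrocyte at 0.145.

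Tbx20, a factor of heart chambers and valves on chromosome 9 (24720812 to 24774303), was held by few cells. Of 5678 cells 47 had a UMI, and 17 cells with 5 or more UMIs held 84.6% of all 332 UMIs, with up to 48 UMIs in 1 cell. These 17 cells were spread over 8 annotated types, among them 5 in Chondrocyte, 3 in Hematoendothelial Progenitor/Endothelium and 2 each in Ependymal Cell, Mesodermal Progenitor and cells annotated Hepatocyte, and over all suspensions (2, 3, 7 and 5 cells). The level of 0.570 in Hematoendothelial Progenitor/Endothelium therefore rested on 3 cells with 81 UMIs, and it was 0 in both founders. That type also held macrophage genes at 24.3 and erythroid genes at 83.1 per 10000, the latter at 405 in F1_1 and at 0.622 to 0.806 in the other suspensions, and their part in the level was not tested.

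Most of these cells shared other genes. Of the 17, 14 had the cardiac factor Gata4, which was detected in 1.66% of all cells, and 12 had Postn, a matrix gene of valves and cushions. None of the 17 cells had a UMI of Nkx2-5 or Myh6. The cells were picked by Tbx20 alone and after its values were seen, and no test was made.

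Tbx6, a factor of presomitic mesoderm on chromosome 7 (126781483 to 126785548), had 42 UMIs in 34 cells. The 5 cells with 2 or more UMIs were all annotated Myoblast/Cardiomyocyte, and 4 of them came from F0_8. Among them 4 had Hes7, a clock gene of the presomitic mesoderm that was detected in 1.06% of all cells, 4 had Dll1, a Notch ligand detected in 9.63% of all cells, 4 had Pax3, detected in 18.3%, and 3 had T, the founding member of the family, which was detected in 0.317% of all cells. Ripply2 was found in 2 of the cells and Msgn1 in 1. The level of Tbx6 in Myoblast/Cardiomyocyte was 0.0614 in F0_8 and 0.00486 to 0.0114 in the other suspensions.

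Tbx22, a palate gene on chromosome X (107667964 to 107688980), had 53 UMIs in 33 cells, 96.2% of them in mesodermal types. Levels in these types ran from 0.0129 to 0.0199 with overlapping intervals, so no order could be given. Of 7 cells with 3 or more UMIs, 5 had Osr2, 5 had Pax9 and 4 had Alx1, which are genes of facial and palatal mesenchyme. These shares compare with 4.42%, 6.46% and 7.70% of all cells.

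Cells annotated Hepatocyte, a shallow type of 543 cells, held 601 UMIs of the 10 genes, 6.11 per 10000 non-mitochondrial UMIs (5.63 to 6.62). The mesodermal types held 3.15 (3.09 to 3.21) on this scale. By suspension the values were 5.44, 6.17, 5.93 and 6.91 against 3.31, 3.64, 2.68 and 3.11, which did not overlap. Among the other shallow types, Endodermal Progenitor was at 2.74 (1.85 to 3.92), with 4.37, 3.43, 2.14 and 1.58 by suspension. Foregut was at 0.465 and Midgut at 0.559. In the cells annotated Hepatocyte Tbx15 gave the largest part, at 3.14, 3.57, 2.99 and 2.59 against 1.26, 1.55, 0.795 and 0.963 in the mesodermal types. Tbx2, Tbx3 and Tbx4 were higher than in the mesodermal types in 4 of 4 suspensions and Tbx5, Tbx18 and Tbx20 in 3 of 4. The interval of Tbx18 (0.334 to 0.613) overlapped the mesodermal one (0.372 to 0.415). Tbx20 had 14 UMIs, 11 of them in 2 cells, and was at 0 in F0_8. By contrast, Tbx1 was higher in 0 of 4 suspensions, and Tbx6 and Tbx22 were at 0 UMIs.

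The liver genes Alb and Afp had 1 and 0 UMIs in these cells, so the annotation went against its defining markers. The limb field list stood at 13.4 and the dermis and body wall list at 14.1 per 10000 there, beside 6.37 to 11.2 and 3.03 to 8.06 in the mesodermal types, while the latter list was also at 13.8 in CNS Neuron and 24.2 in cells annotated Midgut. The mitochondrial share of the cells annotated Hepatocyte was a median 23.0%. Droplets with 100 to 300 UMIs held Tbx15 at 1.18 and those with fewer at 0.466. These droplet levels are per 10000 gene UMIs with mitochondrial ones included, so they are not on the scale of the other levels here. The part of free RNA and of cell damage in these levels was not tested.

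**Figure D5:**
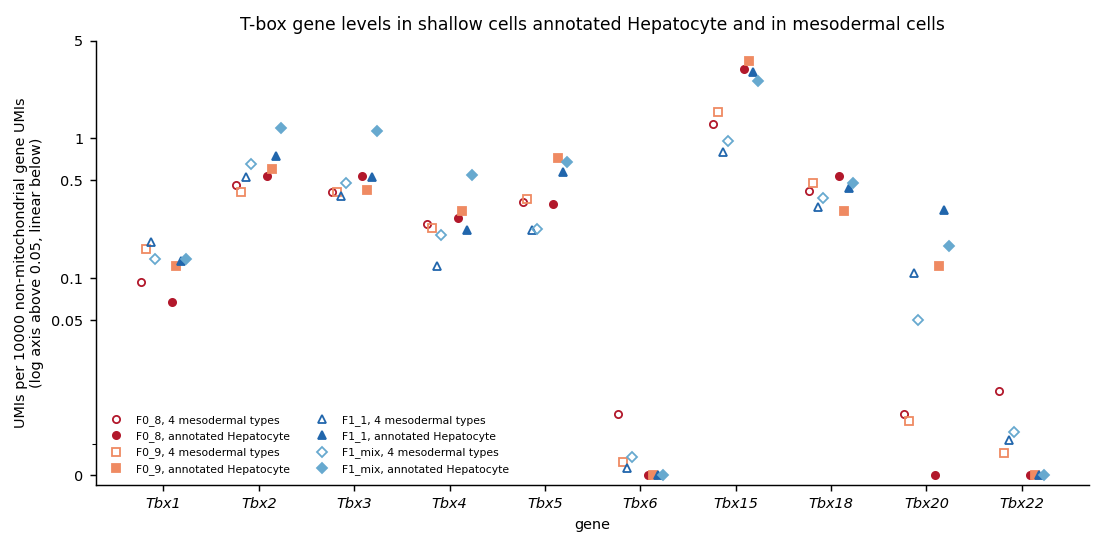
Level of each T-box gene (UMIs per 10000 non-mitochondrial gene UMIs, log axis above 0.05 and linear below) in the cells annotated Hepatocyte (filled) and in the 4 mesodermal types together (open), with 1 symbol per suspension. Tbx15 lies between 2.59 and 3.57 in the filled symbols and between 0.795 and 1.55 in the open ones.

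Founder and F1 suspensions were compared by edgeR's quasi-likelihood test on counts summed per suspension within each type, fitted over all genes with Benjamini-Hochberg adjustment. Of the 10 genes, 8 passed the filter on low counts in at least 1 of 6 types, which gave 32 tests. Only Tbx15 in Gut Mesenchyme/Amniotic Mesoderm was called, against 1.62% of all genes in that type. F0_8 and F0_9 were at 1.77 and 2.37 and F1_1 and F1_mix at 1.33 and 1.19, and the founders were higher by 0.70 ± 0.14 on the log2 scale (adjusted p = 0.0408). Without F0_9 the difference was 0.48 with an adjusted p of 0.166. In the other mesodermal types Tbx15 differed by 0.03 to 0.33 on the log2 scale and was not called.

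In the remaining types 0 members were called by edgeR and 0 by DESeq2, of 7 in Chondrocyte (background 1.16%), 2 in Ependymal Cell (0.0134%), 2 in Epithelial Cell (0%), 7 in Mesodermal Progenitor (1.07%) and 7 in Myoblast/Cardiomyocyte (0%). These backgrounds are shares at an adjusted p under 0.05, and the share of all genes at an unadjusted p is not given. At an unadjusted p under 0.05 there were 7 of the 32 tests, 3 of them in Myoblast/Cardiomyocyte. There, Tbx4 was at 0.240 and 0.226 in the founders and 0.0997 and 0.144 in the F1 suspensions (0.92 ± 0.24, adjusted p = 0.325), Tbx5 at 0.151 and 0.212 against 0.129 and 0.0891 (0.74 ± 0.29, adjusted p = 0.499) and Tbx2 at 0.430 and 0.429 against 0.552 and 0.708 (-0.56 ± 0.15, adjusted p = 0.339). In 14 of the 32 tests the founder and F1 values did not overlap, beside 39.4% of all genes tested in these types, with 9 higher and 5 lower in the founders. Each generation had 2 suspensions, and the mixed one held cells of 2 embryos.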

How the data were processed

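Cells of 4 suspensions labelled with lipid-bound oligos were run as 1 droplet library. Per the file headers the authors aligned reads with Cell Ranger 7.2.0 to mouse GRCm38 with EGFP added and deposited counts, whole UMIs per gene and barcode. The authors also used SoupX, DoubletFinder, RECODE and Seurat to make their cell table, from which only cell types and suspensions were taken here. Its other 20 columns were not used, and 328 of 6006 barcodes had no entry in it. The deposited counts were used without correction for free RNA, and no doublet caller was run here.

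UMIs were summed per type and suspension in Python (3.11.15; pandas 2.3.3, scipy 1.17.1, numpy 2.4.6), and matplotlib 3.10.9 drew the plots. Shares, pairs and partner genes used cells thinned at random to 5000 UMIs, shallower cells being left out. Sums were tested with edgeR 4.0.16 (limma 3.58.1, R 4.3.3) by the quasi-likelihood test after filterByExpr and TMM scaling, with Benjamini-Hochberg adjustment at 0.05, and with DESeq2 1.42.0 as an alternative. The suspension was the block in comparisons of cells with and without a T-box gene, since both sums come from the same suspension, which was 1 embryo each for F0_8, F0_9 and F1_1 and a pool of 2 for F1_mix. Poisson and Clopper-Pearson 95% intervals cover counting error only, and a count of 0 was given a limit of 3 counts. Positions are those of RefSeq for GRCm38.p6.

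Genes named in each fit were the 6 with the largest fold higher and the 3 lower in 4 of 4 suspensions at an adjusted p under 0.05, plus called genes of the marker lists, and 4 genes by likeness (log2 with a pseudocount of 0.01, genes with 500 or more UMIs). Some genes that this rule names are not reported here. Members and lists were chosen with earlier results of these data known. The fits of Tbx4 and Tbx5, another random draw and the inclusion of shallow types were chosen after seeing the data. Other alternatives were thinning to 3000 UMIs, no filter, no TMM factors, no block, cells under 5% mitochondrial UMIs and leaving out each suspension.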

Additional observations from a re-analysis of the deposited data

Results flagged for a closer look

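In 9 of 42 sets of 4 suspensions, 1 suspension stood apart from the other 3 by Dixon's ratio. Chance sets apart about 1 in 20 for normally distributed values, a rate not measured for these counts, and with 3 suspensions at 0 the ratio is 1 whatever the count of the other. Levels are UMIs per 10000. Tbx1 was at 0.0960 in Mesodermal Progenitor of F0_8, below the other suspensions, and at 0.380 in Gut Mesenchyme/Amniotic Mesoderm of F1_1, above them. Tbx2 stood out at 0.661 in Gut Mesenchyme/Amniotic Mesoderm of F1_mix and at 0.287 in Chondrocyte of F0_8. In Chondrocyte, Tbx3 was at 0.357 in F1_mix against 0.138 to 0.174 elsewhere, and Tbx4 at 0.255 in F0_8 against 0.0115 to 0.0435. Tbx6 was at 0.0614 in Myoblast/Cardiomyocyte and at 0.0106 in Chondrocyte of F0_8, the latter from 1 UMI with 0 in the other suspensions, and Tbx20 at 0.235 in Mesodermal Progenitor of F1_1, where the other suspensions had 0 UMIs.

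The founder and F1 values of Tbx2 and Tbx18 were separated in opposite directions in different types. For Tbx2 the founders were higher by 0.40 on the log2 scale in Chondrocyte, whereas the difference was -0.40 in Gut Mesenchyme/Amniotic Mesoderm, -0.36 in Mesodermal Progenitor and -0.56 in Myoblast/Cardiomyocyte. For Tbx18 it was 0.46 in Mesodermal Progenitor, -0.52 in Chondrocyte and -0.49 in Myoblast/Cardiomyocyte. None of these was called by edgeR (adjusted p 0.295 to 0.801), and over all tests of T-box genes 14 of 32 did not overlap, beside 39.4% of all genes. Whether these effects differed between types was not tested.

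The 328 barcodes outside the cell table also held T-box UMIs, 12 of Tbx1, 46 of Tbx2, 41 of Tbx3, 22 of Tbx4, 23 of Tbx5, 76 of Tbx15, 35 of Tbx18 and 62 of Tbx20. Tbx20 reached 0.351 UMIs per 10000 there, with 27 UMIs in F1_1, 33 in F1_mix and 2 in F0_8.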

How the results depend on the processing

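The level of each gene in its highest type moved by less than the spread between suspensions in all 40 recomputed values. Of the differences between cells with and without a T-box gene, 821 kept their side of the threshold, 239 fell short of it, 6 newly passed and 15 changed sign. Of 54 genes named beside a T-box gene by the rule on fold, 16 stayed called in every alternative that tested them. The number of genes highest in the same type in all 4 suspensions went from 0 to 1 with equal weight per cell, with thinned cells and with shallow types included. In the order Tbx2, Tbx3, Tbx4, Tbx5, Tbx15 and Tbx18, DESeq2 called 26, 15, 10, 12, 43 and 10 genes. Without the suspension block, that is without pairing, the fits called 57 (Tbx2), 13 (Tbx3), 14 (Tbx4), 95 (Tbx15) and 17 (Tbx18). Thinning to 3000 UMIs gave 33 (Tbx2), 8 (Tbx5), 78 (Tbx15) and 6 (Tbx18), another draw 74 (Tbx3), 113 (Tbx15) and 24 (Tbx18), and no filter 104 (Tbx3), 86 (Tbx5) and 79 (Tbx18). Leaving out each suspension gave 33 to 103 for Tbx2, 19 to 54 for Tbx3, 15 to 32 for Tbx4, 14 to 38 for Tbx5, 125 to 198 for Tbx15 and 17 to 64 for Tbx18. Between founders and F1, 665 of 88429 tests of a gene in a type were called, summed over the fitted types. A gene can count in more than 1 of them. The calls came to 2981 without a filter, 418 by DESeq2 and 499 to 1446 with 1 suspension left out. Calls of T-box genes went from 1 to 5 without a filter and to 0 to 4 with 1 left out. In those fits with 1 left out, the lone suspension was assumed to vary like the others. The cause was not tested.

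The signs that changed were of differences that had not been called, apart from Igfbp3 beside Tbx3, which went to -0.10 in another draw. With 1 suspension left out, Tbx15 beside Tbx2 ranged from -1.17 to 0.38, Tbx18 beside Tbx3 from -0.058 to 0.97, Tbx5 beside Tbx4 from -1.37 to 0.33, Tbx2 beside Tbx5 from -0.066 to 0.36, Tbx4 beside Tbx5 from -0.47 to 0.091 and Tbx1 beside Tbx18 from -0.22 to 0.30. Another draw gave -0.30 for Tbx3 beside Tbx4 and 0.016 for Tbx3 beside Tbx15, which was at 0.18 with 3000 UMIs. With no filter, Tbx2 beside Tbx5 was at -0.046 and Tbx1 beside Tbx18 at -0.048.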

Other observations

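The other T-box genes had 77 UMIs for T, 411 for Eomes, 341 for Tbr1, 2 for Tbx10, 8 for Tbx19, 14 for Tbx21 and 4261 for Mga. Tbr1, a factor of cortical neurons, was highest in Neuroectoderm/Glia in all 4 suspensions, at 0.375 UMIs per 10000, and only 3.81% of its UMIs lay in mesodermal types. Eomes marks intermediate neural progenitors. In Neuronal Progenitor it was at 0.360 and 0.284 in the founders and at 0.0879 and 0.116 in the F1 suspensions. The log2 difference there was 1.61 ± 0.25 (adjusted p = 0.0332 by edgeR), and 0.656% of the 10668 genes tested were called. Eomes was not called in CNS Neuron (0.26 ± 0.45, adjusted p = 0.922 by edgeR) or in Neuroectoderm/Glia (-1.06 ± 0.80, adjusted p = 0.628 by edgeR). T, the notochord and tail bud factor, was at 0.214 in Ependymal Cell, where 33 of the 39 UMIs lay in 3 cells of F1_1 and F0_9 and F1_mix were at 0. In F0_8 it was at 0.145 in Myoblast/Cardiomyocyte, from 26 UMIs in 2 cells, and at 0.122 in Ependymal Cell, from 6 UMIs in 1 cell. Mga, a broadly used MAX partner, held 52.7% of its UMIs in mesodermal types.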
